A study of Mus musculus with 6 samples.

Results

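The miRNA hairpin Mir21a yields a pair of mature strands, the guide strand miR-21 and the passenger strand miR-21*, and both were followed here in the aortas of 6 mice. The assays were found by their exact names, mmu-miR-21 and mmu-miR-21*, and are 2 of the 596 mouse miRNA assays in the table. The pair was selected on earlier results of the same comparison, in particular the level of miR-21* in each group, so the values of both strands between the groups are given as a description, without a test.

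All 6 mice were female Apoe-/- mice that carried the VE-Cadherin-CreERT2 transgene, in which the VE-cadherin promoter drives a tamoxifen-inducible Cre recombinase in endothelial cells. The 3 EC-Dicerflox mice had the genotype Dicer1flox/flox, and the 3 EC-DicerWT mice were littermates with Dicer1WT/WT. Every mouse received tamoxifen (2 mg per 20 g body weight) on 5 days. A high-fat diet, in which casein made up 19.5%, crude fat 21% and cholesterol 0.15%, was then given for 12 weeks, from an age of 6 to 8 weeks. Total RNA of the whole aorta was measured, so the Cre-expressing endothelium is 1 of several cell types in each sample, and a lower number of cells of a type cannot be told apart from less RNA per cell. Dicer1 itself is not among the assays analysed here.

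Dicer cuts the hairpin precursor of a miRNA into a short duplex. One strand of the duplex, the guide, is as a rule kept in an Argonaute protein and directs it to target mRNAs, while the passenger strand is as a rule released and degraded. MiR-21 is a widely expressed miRNA that is known to be abundant in the vessel wall and to increase with vascular injury and inflammation.

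The sequences are shown because the strands come from a single precursor but have different seeds, the bases 2 to 8 that pair with target mRNAs. Both strands were matched in RefSeq to Mir21a on chromosome 11 of GRCm38.p6, on the minus strand, within the span of the gene Vmp1 and 209 bases from its end with the lower coordinate. MiR-21 (now named miR-21a-5p) lies at chr11:86584120-86584141 and miR-21* (now miR-21a-3p) at chr11:86584082-86584103. In the mature sequences, written 5′ to 3′, capitals mark the seed.
mmu-miR-21: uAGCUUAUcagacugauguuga
mmu-miR-21*: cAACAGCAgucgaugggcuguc
mmu-miR-21c: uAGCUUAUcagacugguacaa

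MiR-21c, a separate gene on chromosome 8, is shown since it was the only other of the 1738 mature mouse sequences in the RefSeq table with the seed of miR-21, and its first 15 bases are those of miR-21. Whether the miR-21 assay also detects it was not tested. No other mature sequence in the table had the seed of miR-21*. In the hairpin of 92 bases at chr11:86584067-86584158, capitals mark the strands, with miR-21 first.
Mir21a hairpin: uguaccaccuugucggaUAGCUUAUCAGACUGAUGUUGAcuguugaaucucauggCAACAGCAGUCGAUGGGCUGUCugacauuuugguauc

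The strands are 22 bases long each and are separated by 16 bases. In the structure of lowest energy that RNAfold predicted for the hairpin, 19 bases of miR-21 were paired with bases of miR-21*.

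Each assay gave a cycle threshold (Ct), the number of PCR cycles needed to reach a set signal, so that a lower Ct means more RNA. MiR-21 was detected early in every sample, with a Ct of 18.99, 19.11 and 19.22 in the EC-Dicerflox and 18.64, 18.59 and 19.29 in the EC-DicerWT aortas. By the order of Ct it stood between the 27th and the 32nd of the 596 assays in each sample. MiR-21* was detected late, with a Ct of 28.77, 30.72 and 30.23 in the EC-Dicerflox and 30.61, 32.19 and 32.75 in the EC-DicerWT aortas. All its values lay below the limit of 40, and its place in the order was between 288 and 394. As assays can differ in efficiency, this order compares signals and not molecule numbers.

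A level was defined as the mean Ct of 5 control small RNAs in the sample minus the Ct of the strand, on a log2 scale if each cycle doubles the product, which was assumed. In EC-Dicerflox aortas the control RNAs had a mean Ct of 19.89 ± 0.46 (SD, n = 3), and in EC-DicerWT aortas one of 19.73 ± 0.39 (SD, n = 3). Their means differed by 0.16 cycles, less than 1 SD of either group (P = 0.7, exact two-sided permutation test, smallest possible P = 0.1). In some assays replicate 3 of either group stood apart. For 22 of the 596 miRNA assays these samples were each over 2 cycles higher or lower than any of the remaining 4. Neither strand of miR-21 was among these assays, and other pairs of samples were not counted in this way. Values without the third replicates are given beside the results on each strand.

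The level of miR-21 overlapped between the groups. It was 0.45, 0.76 and 1.14 in the EC-Dicerflox and 0.93, 0.86 and 0.88 in the EC-DicerWT aortas. The EC-DicerWT values all lay inside the range of the EC-Dicerflox values. The group means were 0.79 ± 0.34 (SD, n = 3) and 0.89 ± 0.04 (SD, n = 3), a difference of -0.10, or 93.1% of the EC-DicerWT level. In replicates 1 and 2 the difference was -0.29, and between the third replicates, with 1 sample per group, it was 0.26. With U6, a spliceosomal RNA, as the only reference it was -0.48, and the EC-DicerWT aortas then had the wider spread (SD 0.71 against 0.09).

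Among the 439 assays tested, those with a signal in 3 or more samples, 219 had a lower and 219 a higher difference than miR-21. The guide strand was thus the median assay of the profile. This order did not depend on the choice of a reference shared by both cards, since such a reference moves all assays by the same amount. With a separate reference for each card the difference of miR-21 was -0.11 and the median of all tested assays was -0.11.

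The passenger strand lay away from the median of the profile. The level of miR-21* was -9.33, -10.85 and -9.88 in the EC-Dicerflox and -11.04, -12.75 and -12.58 in the EC-DicerWT aortas. All EC-Dicerflox values were higher than all EC-DicerWT values, with EC-Dicerflox replicate 2 and EC-DicerWT replicate 1 separated by 0.19. The means were -10.02 ± 0.77 (SD, n = 3) and -12.12 ± 0.94 (SD, n = 3), and the difference of 2.10 corresponds to a 4.30-fold higher level in EC-Dicerflox aortas. In replicates 1 and 2 the difference was 1.80, and in the third replicates it was 2.71.

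**Figure D1:**
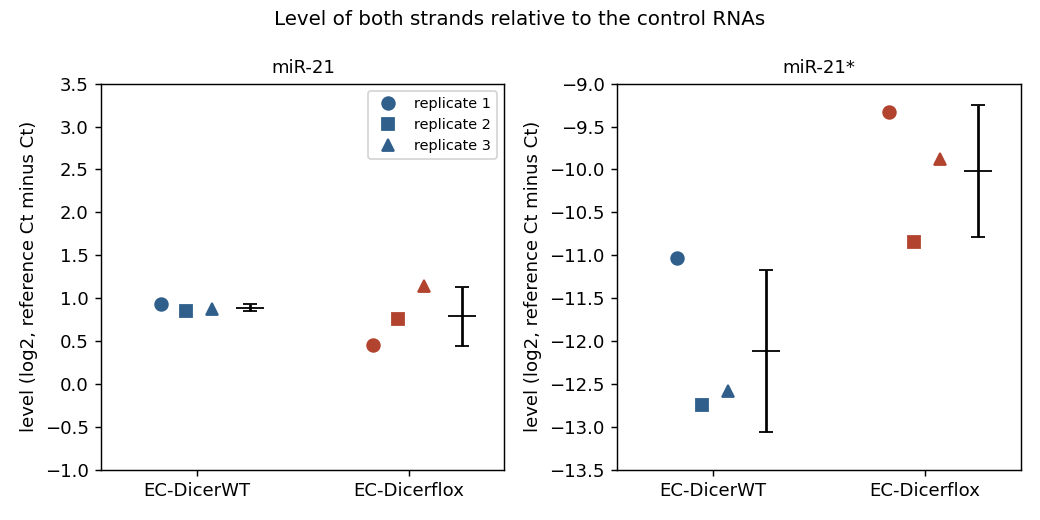
Level of miR-21 (left) and miR-21* (right) in each aorta, as reference Ct minus Ct on the log2 scale; both axes span the same number of log2 units. Marker shapes stand for the replicate number, and the horizontal bars with error bars for the mean and SD of 3 mice. The values of miR-21 overlap between the groups, while those of miR-21* are higher in all 3 EC-Dicerflox aortas.

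The separation of the groups was narrow and depended on the reference. The Ct values of miR-21* without any reference overlapped, by 0.11 cycles, between EC-Dicerflox replicate 2 and EC-DicerWT replicate 1. The groups did not overlap with the mean of all detected miRNAs, with snoRNA135 or with a separate reference per card. The differences were then 2.16, 2.15 and 2.11. With U6 alone the difference was 1.73 and the groups overlapped. U6 on card B had a Ct of 16.62 in EC-DicerWT replicate 1 and between 15.08 and 15.39 in the other samples. Y1 on card B, part of the main reference, had 24.32 in EC-Dicerflox replicate 3 and between 21.34 and 22.54 in the others. The range on card B was 1.55 cycles for U6, 2.98 for Y1 and 2.54 for U87. For snoRNA135 it was 1.03 and for snoRNA202 0.78.

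In the comparison across all tested assays (limma), 0 of 439, or 0%, had an adjusted P under 0.05, while 21, or 4.78%, had an unadjusted P under 0.05. The assays that were higher in EC-Dicerflox aortas with an unadjusted P under 0.05 numbered 4, or 0.911%, and those higher without overlap between the groups numbered 12, or 2.73%. MiR-21* was among the 21, the 4 and the 12, and nothing is read from this, since it was selected on the same comparison. Its unadjusted P was no longer under 0.05 with U6 alone, or without EC-Dicerflox replicate 1 or 3 or EC-DicerWT replicate 2 or 3. Its difference was the 14th highest. Of the 13 assays above it, 9 were undetected in at least 1 sample.

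**Figure D2:**
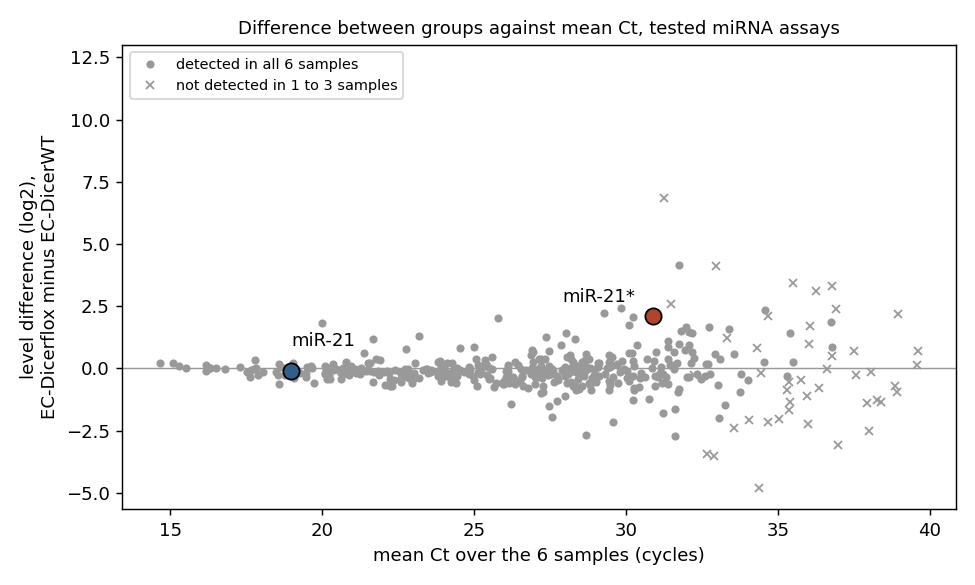
Difference in level between EC-Dicerflox and EC-DicerWT aortas (log2) against the mean Ct over the 6 samples, for the 439 tested miRNA assays. Circles are assays detected in all 6 samples, and crosses are assays that were undetected in 1 to 3 samples. MiR-21 lies at a mean Ct of 18.97 where differences are small, and miR-21* at 30.88 where they spread widely.

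The spread between mice of each strand was close to that of other assays of similar Ct. The pooled SD of miR-21 was 0.25, and the median pooled SD of the 18 other tested assays within 1 cycle of its mean Ct was 0.25. For miR-21* it was 0.86, and for the 52 other assays within 1 cycle of its mean Ct the median was 0.94. Technical error and variation between mice cannot be told apart in these values.

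The difference between the strands within a sample needs no reference RNA. The Ct of miR-21* minus that of miR-21 was 9.79, 11.61 and 11.02 cycles in the EC-Dicerflox and 11.97, 13.60 and 13.46 cycles in the EC-DicerWT aortas. All EC-Dicerflox values lay below all EC-DicerWT values, with 0.36 cycles between the groups. The means were 10.80 ± 0.93 (SD, n = 3) and 13.01 ± 0.90 (SD, n = 3) cycles. The strand difference thus changed by -2.21 cycles in EC-Dicerflox aortas, a ratio of passenger to guide that was 4.61-fold higher if both assays double in each cycle. The change was -2.09 cycles in replicates 1 and 2, and -2.44 in the third replicates. Across the 6 samples the SD of Ct was 1.43 for miR-21* and 0.30 for miR-21, against 1.46 for their difference, which varied about as much as the passenger strand alone.

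MiR-21 was measured on card A and miR-21* on card B of the array, and a shift between the cards would enter their difference. The mean Ct of the control RNAs on card B minus card A was -0.10 ± 0.36 (SD, n = 3) cycles in EC-Dicerflox and -0.12 ± 0.19 (SD, n = 3) cycles in EC-DicerWT aortas (difference 0.02, P = 1, exact two-sided permutation test, smallest possible P = 0.1). With U6 alone the difference of the card shift was -0.47. So small a test does not show that the cards were equal. Some single control RNAs shifted more than their mean. Y1 had a Ct of 22.52 on card A and 21.34 on card B in EC-Dicerflox replicate 1. In EC-Dicerflox replicate 3 these were 22.62 and 24.32. The group difference on cards A and B was -0.02 and 0.67 cycles for Y1, and 0.26 and 0.42 for U87. For snoRNA135 it was 0.32 and 0.10, and for snoRNA202 0.18 and 0.12. After subtraction of the mean shift in each sample, the change of the strand difference was -2.22 cycles and the groups did not overlap.

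**Figure D3:**
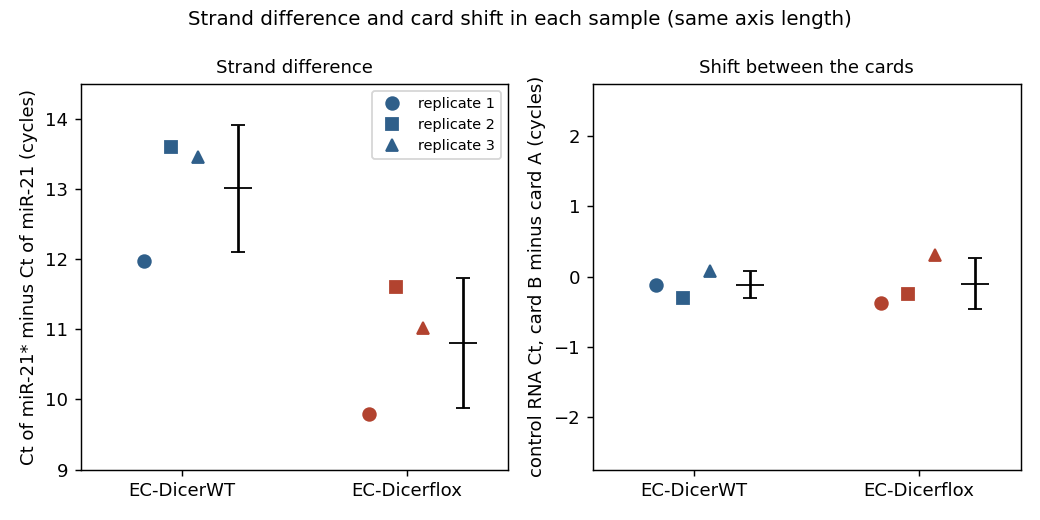
Left, Ct of miR-21* minus Ct of miR-21 in each aorta (cycles). Right, mean Ct of the control RNAs on card B minus card A in the same samples (cycles), with an axis of the same length; shapes stand for replicate numbers and bars for the mean and SD of 3 mice. The strand difference falls from a mean of 13.01 to 10.80 cycles. The card shift, averaged over the control RNAs, lies between -0.37 and 0.31 cycles, and some single control RNAs such as Y1 shift more.

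The strand difference of miR-21 was compared with that of the other hairpins with an assay for each strand. There were 106 such pairs, 55 named as guide and asterisk strand and 51 as 5p and 3p strand. In 66 pairs both strands were detected together in at least 3 samples. The median change between the groups over these 66 pairs was 0.01 cycles, in a range from -2.21, which is miR-21, to 4.27. In size, 3 pairs had a larger change, all of them upward. By limma, the unadjusted P was under 0.05 in 2 of the 66 pairs (3.03%). No pair passed after adjustment (0 of 66, smallest adjusted P 0.96). The groups did not overlap, with lower values in EC-Dicerflox aortas, in 2 of the 66 pairs (3.03%). Both counts hold the same pairs, miR-21 and miR-203, a miRNA known from the skin, and for miR-21 they restate its selection. The unadjusted P of the miR-21 pair was no longer under 0.05 without EC-Dicerflox replicate 1 or without EC-DicerWT replicate 2 or 3.

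MiR-203 was named after its values were seen. The Ct of miR-203* minus that of miR-203 was 7.88, 7.79 and 8.57 cycles in EC-Dicerflox and 9.75, 8.88 and 8.96 cycles in EC-DicerWT aortas, a change of -1.12 cycles (limma, adjusted P = 0.96). Among the 55 pairs detected in all 6 samples, the pairs with the lowest changes after miR-21 were miR-542-5p and miR-542-3p (-1.92 cycles) and miR-145 and miR-145* (-1.65 cycles). The highest changes were found for miR-129 (1.71), miR-1941 (0.95) and miR-409 (0.93), each as 3p minus 5p. In these 5 pairs the values of the groups overlapped, and the adjusted limma P values were 0.96.

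**Figure D4:**
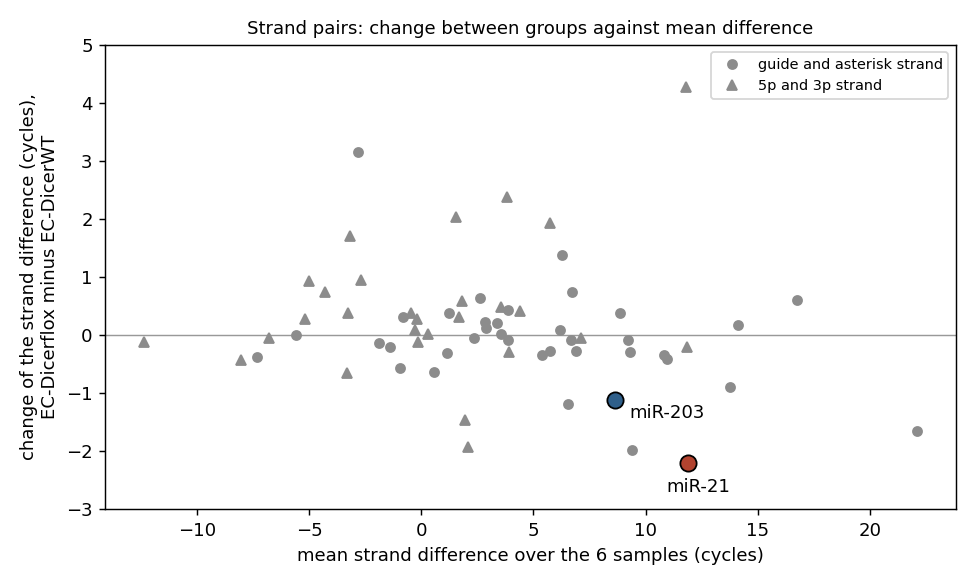
Change of the strand difference between EC-Dicerflox and EC-DicerWT aortas (cycles) against the mean strand difference over the 6 samples (cycles) for the 66 tested pairs. Circles are guide and asterisk strands (asterisk minus guide) and triangles 5p and 3p strands (3p minus 5p). MiR-21 has the lowest change, -2.21 cycles, at a mean difference of 11.91 cycles.

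Among the pairs detected in all samples, the passenger strand of miR-21 was among the faintest relative to its guide. Over all 6 samples the strand difference of miR-21 was 11.91 cycles. Among the 31 guide and asterisk pairs detected in all samples the median was 3.89 cycles, with a range from -5.57 to 22.09. Only miR-191 and miR-145 had a larger difference, while in 5 pairs the asterisk strand had the lower Ct. Since efficiencies of the assays are unknown, this order describes the signals.

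Passenger strands as a class lay near the median of the profile. Of the 64 asterisk assays, 48 were tested. Their median difference in level was -0.11, against -0.10 for all tested assays, and 18 of them lay above 0. Unadjusted limma P values under 0.05 were found for 2 higher asterisk assays, miR-21* and miR-203*, and for 0 lower ones, against 4 higher and 17 lower among all 439 tested assays. MiR-21* was selected on this comparison, which leaves miR-203*. No asterisk assay had a larger difference than miR-21*. Among the 34 tested pairs with the guide on card A and the passenger on card B, the median change of the strand difference was -0.17 cycles, with 22 below and 12 above 0.

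The assays with the pattern most like each strand over the 6 samples were sought among the 393 other assays detected in all samples, by the root mean square difference of levels centred on their means. For miR-21 these were miR-361 (0.07), miR-195 (0.08), miR-26b (0.09), miR-148a (0.09) and miR-27b (0.10), against a median of 0.42 over all candidates. For miR-21* they were miR-202-3p (0.75), miR-1898 (0.84), miR-1188 (0.87), miR-615-3p (0.90) and miR-1954 (0.91), against a median of 1.39. The centred level of miR-21* itself had a root mean square of 1.26, so no assay followed it closely. The strands had a difference of 1.33 from each other. This placed miR-21* at 332 in the order of likeness to miR-21, and miR-21 at 151 in the order for miR-21*. The difference of 1.33 lay above the median of 0.42 for miR-21 and below the median of 1.39 for miR-21*. It was also larger than the root mean square of 1.26 of miR-21* itself, so the place below the median shows no likeness.

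MiR-590-5p was listed as a further miRNA with the seed of miR-21 from general knowledge, which was not checked here against a sequence. It had a Ct of 30.44, 30.56 and 37.36 in EC-Dicerflox and 30.91, 30.66 and 40 (not detected) in EC-DicerWT aortas. Replicate 3 of both groups lay more than 2 cycles above the other samples, and it was 1 of the 22 assays in which they stood apart. The values of the groups overlapped (limma, adjusted P = 0.99).

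MiRNAs known, beside miR-21, to rise with injury or inflammation of the vessel wall did not pass the test. Of 10 such miRNAs 9 were tested, since miR-146b was undetected, and 0 had an adjusted or unadjusted limma P under 0.05, against 0% and 4.78% of all tested assays. Their median difference was -0.34, against -0.10 for all tested assays, and all 9 were below 0, as were 271 of the 439 assays tested. With the mean of all detected miRNAs as reference 7 of 9 were below 0 beside 243 of the 439, and with snoRNA135 7 of 9 beside 244 of the 439. The lowest was miR-34a, a target of p53 (-0.52 ± 0.45, SE), followed by miR-222 (-0.42 ± 0.38, SE), which acts in smooth muscle growth, and miR-221 (-0.40 ± 0.28, SE) from the same transcript. Among the miRNAs that are known, with miR-21, for a slow loss after silencing of Dicer in endothelial cells, the endothelial miR-126-3p differed by -0.13, miR-23a by -0.27 and miR-26a by 0.06, with adjusted limma P values of 0.99. The sign of these differences is relative to the control RNAs, and with U6 alone the median of all tested assays itself moved to -0.48.

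Markers of the cell types in the aorta were examined beside the difference of miR-21*. The 6 leukocyte miRNAs were detected in all samples, differed by -0.34 to 0.07, and had a summed level between 2.61 and 3.69 in EC-Dicerflox and between 2.79 and 4.03 in EC-DicerWT aortas, on a linear scale relative to the control RNAs. For 3 smooth muscle assays these sums were 40.5 to 66.5 and 38.8 to 55.3, and for both strands of the endothelial miR-126 they were 3.94 to 6.76 and 4.41 to 7.08. For 2 erythrocyte miRNAs (miR-451 and miR-486) they were 1.19 to 1.71 and 0.967 to 1.60, and for 6 assays of striated muscle 2.39 to 3.32 and 2.45 to 2.90. The sums overlapped between the groups in each list. Of the 17 tested assays in these lists, 0 had an adjusted limma P under 0.05, as did 0 of all 439 tested assays. In simulated data 1.75% of assays with a change of 1 log2 unit passed after adjustment, so smaller changes would rarely pass. MiR-208, from the heart muscle gene Myh6, differed by -1.65 (limma, adjusted P = 0.98). Its unadjusted P was under 0.05, as in 4.78% of all tested assays. The other tested markers of striated muscle differed by -0.15 (miR-1), 0.07 (miR-133a) and 0.23 (miR-133b). MiR-208b was detected only in EC-Dicerflox replicates 2 and 3, with a Ct of 35.10 and 33.61, and miR-499 only in EC-DicerWT replicate 2, with a Ct of 35.75. MiR-145*, a passenger strand like miR-21*, had a difference of 1.86 ± 0.98 (SE) with Ct values from 34.01 to 38.71 that overlapped between the groups. The part of other cell types in the difference of miR-21* was not tested beyond these values.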

How the data were processed

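Aortic miRNAs of 3 mice per group were measured by real-time PCR on TaqMan cards A and B. The values that the authors deposited are raw Ct values per assay, with 40 for not detected, after reverse transcription and preamplification with rodent primer pools. The setting of baselines and signal levels is not given in the sources used here. Among the 608 rows of the table were 596 mouse miRNA assays. Card A held 335 of them and card B 261, as told by the form of the number behind each assay name. Groups and replicate numbers came from the labels.

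From these Ct values, levels were computed as the mean Ct of the control RNAs (U6, U87, Y1, snoRNA135 and snoRNA202, averaged over the cards) minus the Ct of the assay. Assays detected in at least 3 samples were compared by limma 3.58.1 in R 4.3.3 (functions lmFit and eBayes, two-sided, no replicate block). Adjusted P values are those of Benjamini and Hochberg over every assay tested. Strand differences were fitted in the same way over all tested pairs, with assays of the same name averaged. Single values were compared by exact permutation tests over 20 assignments. Counts at an unadjusted P of 0.05 are given beside adjusted ones. Both fits were tested on simulated data. The hairpin was folded with RNAfold 2.7.2.

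The members and lists were chosen with earlier results of these data known. Named were both strands, the 5 assays most like each, the 3 strand pairs with the highest and the lowest change, and all lists described (injury or inflammation of the vessel wall, slow turnover, shared seed, and markers of leukocytes, smooth muscle, endothelium, erythrocytes and striated muscle). The marker lists also held miR-144 and miR-206, for which the table had no assay of that exact name. Alternatives were other references, detection filters, undetected wells as missing values, a Ct limit of 35, variance trend, batch term, replicate block and leaving out each replicate. Ct values have no read depth, so the precision is limited by the number of mice.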

Additional observations from a re-analysis of the deposited data

How the results depend on the processing

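The level of miR-21* was higher in EC-Dicerflox aortas in all 12 alternatives, from 1.73 to 2.71, and its strand difference to miR-21 was lower in all 9, between -2.73 and -1.70. Most of these alternatives leave out replicates, and as the groups did not overlap, they could not change the sign. The pair was also selected on this comparison, so both counts are a description only. Leaving out each replicate gave 1.76 to 2.65 for miR-21*, and -0.28 to 0.06 for miR-21, which has no fixed sign. The difference of miR-21 was -0.48 with U6 alone and 0.26 in the third replicates alone. At the unadjusted limma P of 0.05, 11 assays passed with U6 alone (0 of them higher), and 8 to 22 with 1 replicate left out (8 without EC-Dicerflox replicate 2, 11 without EC-DicerWT replicate 3, 13 without EC-DicerWT replicate 1). The higher assays numbered 7 with undetected wells left missing, 2 with a variance trend, 7 with a batch term for replicate 3, and 2 to 9 with 1 replicate left out (2 without EC-Dicerflox replicate 2, 9 without EC-Dicerflox replicate 3). In replicates 1 and 2 alone, a setting added after the data were seen, 10 higher assays passed. The strand pairs that passed numbered 1 with a variance trend, 5 in replicates 1 and 2, and 1 to 6 with 1 replicate left out (6 without EC-Dicerflox replicate 3, 1 each without EC-Dicerflox replicate 1, EC-DicerWT replicate 2 and EC-DicerWT replicate 3). The miR-21 pair did not pass in these last 3 fits or in replicates 1 and 2 alone, and miR-21* did not pass with U6, in replicates 1 and 2 alone, or without EC-Dicerflox replicate 1 or 3 or EC-DicerWT replicate 2 or 3. An adjusted P under 0.05 was found for 1 assay, miR-1906, with the batch term and for 1, the same, in replicates 1 and 2, and for 0 strand pairs in any of these fits. The cause was not tested. The Ct difference of the control RNAs was -0.22 with U6 alone, and -0.0724 to 0.386 with 1 replicate left out. Their shift between cards was -0.47 with U6 alone, -0.0497 with the median of the controls, and -0.188 to 0.153 with 1 replicate left out. With a replicate block, 17 assays and 2 strand pairs passed at the unadjusted P, and 0 after adjustment. A shared number was not read as a pair, since the methods of the study name no pairing. Deviations of same-numbered samples correlated by 0.24, 0.03 and 0.39. Each group has 3 mice, and assays with a late Ct, such as miR-21*, spread more between mice.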
